A study of Mus musculus with 6 samples.

Results

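Astrocyte marker genes were followed in whole brains of heterozygous periphilin (Pphln1) knockout mice and of their wild-type littermates. The members were the probe sets annotated to exactly 1 gene among 31 genes known as markers of astrocytes. They came to 65 of the 45037 probe sets that were not manufacturer's controls, and they covered 30 of the 18193 genes with such a probe set. Ntrk2os had no such probe set and is not analysed here. Of the 65, 59 probe sets, covering all 30 genes, were brighter than the limit below which a probe set was left out as dim, a mean signal of 18.4.

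The study compared 3 heterozygous knockout brains with 3 wild-type C57BL/6 brains, all from males 2 months old. Each brain came from a different animal and was hybridised to its own Affymetrix array. The construction of the Pphln1 allele is not described in the sources used here. Replicates are separate animals. The first heterozygous title carries no number and is called heterozygous 1.

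Astrocytes take up glutamate and potassium released by neurons, buffer water at blood vessels, supply lipids and metabolites, and hold a cytoskeleton of intermediate filaments. Gfap, the filament protein most used to stain them, is high in white matter, in the glial limiting layer and in the hippocampus and low in much of the cortical grey matter, and it increases in reactive astrocytes. The glutamate transporters, Aldh1l1 and Aldoc are found in astrocytes of grey matter as well. Many of the genes are shared with other cells: Apoe and Cst3 with microglia, Vim with endothelial cells, and Clu with neurons and ependyma. In RNA from whole brain, fewer astrocytes and less RNA per astrocyte cannot be told apart.

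Signals are the deposited linear intensities, scaled by the authors to the same trimmed mean of 150.0 on every array. Differences are heterozygous minus wild type on the scale of log2(signal + 16), which understates changes of dim probe sets, and each gene is given by its brightest tested probe set unless another is named. Log2 values of any 2 arrays correlated at 0.978 to 0.984. Of markers of brain cells, 19 of 20 neuron and 15 of 17 oligodendrocyte markers were bright enough to test, while 6 of 8 genes of tissues outside the brain (Alb, Ttn, Myh6, Ins2, Krt14 and Umod) were dim. A measure of RNA composition differed between arrays: the mean of the 3 control probe sets for 18S ribosomal RNA was 80.3, 115 and 114 on heterozygous 1 to 3 and 94.4, 179 and 100.4 on wild type 1 to 3.

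No astrocyte marker changed between genotypes by the test over all probe sets. None of the 59 member probe sets had a limma adjusted p under 0.05 (lowest 0.956), where 0.0148% of all 27022 tested probe sets did (0.0111% higher and 0.0037% lower in heterozygous brains). At an unadjusted limma p under 0.05 there were 4 member probe sets, 1 higher and 3 lower, or 6.78% against 4.83% of all tested probe sets (2.43% higher and 2.4% lower). By gene there were 3 of 30 (Acsbg1, F3 and Slc1a3), or 10%, against 4.38%. By gene, 14 of 30 were higher in sign and 16 lower, with a median log2 difference of -0.0043, beside a median of 0.0068 and 52.0% higher over all 13024 genes tested. For 29 of the 30 genes the whole 95% confidence interval lay within a fold of 1.5 in either direction, a bound chosen after the values were seen. Gfap was the exception.

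**Figure D1:**
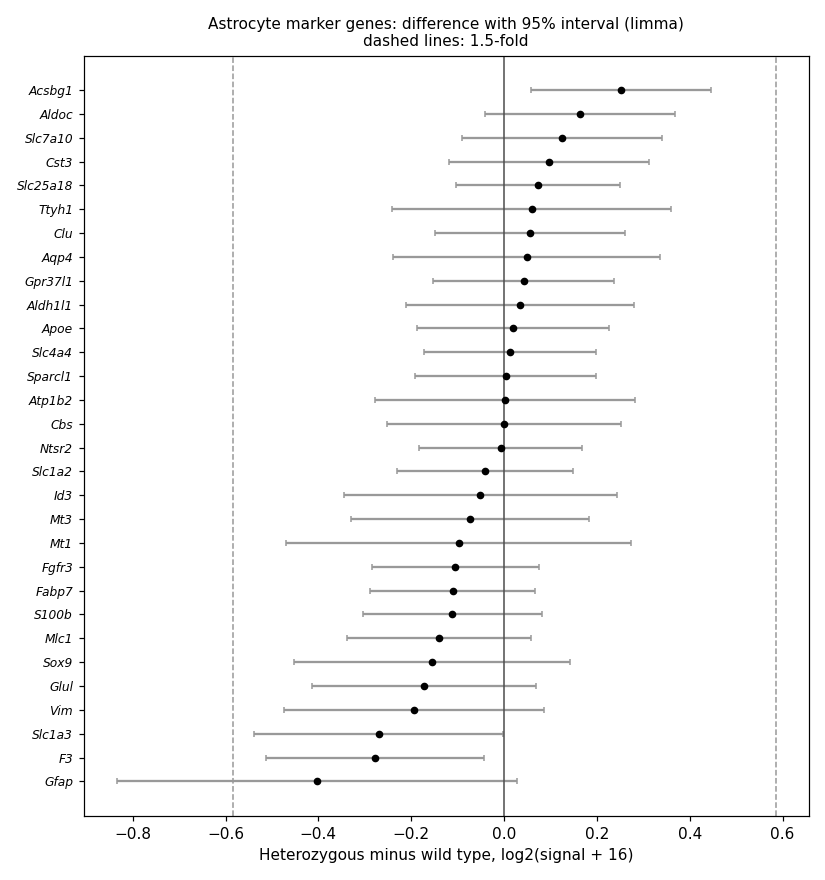
Difference between genotypes for each of the 30 astrocyte marker genes, on the x axis as heterozygous minus wild type in log2(signal + 16), with genes on the y axis. Points are estimates from 3 against 3 brains, bars are 95% confidence intervals from limma, and dashed lines mark a fold of 1.5, which the interval of Gfap alone crosses.

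Both genes of filament proteins were lower in sign in heterozygous brains, and Gfap had the lowest value of the 30. It measured 712, 441 and 449 on heterozygous 1 to 3 and 796, 522 and 802 on wild type 1 to 3. Heterozygous 1 thus lay with wild type 1 and wild type 3, while wild type 2 lay with the other heterozygous brains, and the genotypes overlapped. The means were 534 ± 154 (SD, n = 3) and 707 ± 160 (SD, n = 3), which gave -0.40 on the log2 scale (SE 0.20, limma adjusted p = 0.956), with a 95% interval of -0.83 to 0.03. The two-sided exact permutation p was 0.2, where 3 against 3 brains can reach 0.1 at the least. Without heterozygous 1 the difference was -0.62, and without wild type 2 it was -0.60 (limma adjusted p = 0.997 and 0.793). Without any 1 of the other 4 brains it was smaller in size, at -0.31 to -0.29. With the logarithm of the 18S signal as a covariate, a choice made after the data were seen, it was -0.59 (limma adjusted p = 0.147).

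Each of the other Gfap probe sets gave heterozygous 1, wild type 1 and wild type 3 as the 3 highest brains too. On 1426509_s_at the signals were 398, 289 and 355 in heterozygous and 465, 377 and 531 in wild-type brains. Its log2 difference was -0.38 (SE 0.14), and its order of the 6 brains was that of the brightest probe set in all 15 pairs of brains. On 1440142_s_at they were 224, 111 and 80.7 against 141, 104 and 199.9, at -0.15 (SE 0.30). This probe set ordered 11 of the 15 pairs as the brightest did, with heterozygous 1 highest. The 3 highest brains were therefore shared by the 3 Gfap probe sets, although the full order and the size of the genotype difference were not.

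Vim, the filament protein of immature and reactive astrocytes, was lower in sign wherever it was measured, on 3 probe sets, with differences of -0.19 (SE 0.13), -0.20 (SE 0.09) and -0.22 (SE 0.11). On the brightest it was -0.34 without heterozygous 2 and -0.10 without heterozygous 1. On 1450641_at it measured 645, 631 and 596 in heterozygous and 671, 692 and 798 in wild-type brains, without overlap. On the brightest, 1438118_x_at, it measured 576, 809.7 and 604 against 712, 836 and 715. There the highest values were those of wild type 2 and heterozygous 2, which were among the lowest for Gfap. Of the 15 pairs of brains, 1438118_x_at ordered 7 as Gfap did, 1450641_at 12 and 1456292_a_at 8.

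The Gfap start region is printed because Gfap had the largest spread among the brains by brightest probe set. It covers 250 bases before and 50 after the gene's start in RefSeq, on the minus strand of GRCm38.p6 at chr11:102897151-102897450. Capitals mark the match to TTCNNNGAA, the element bound by STAT factors, which are known regulators of Gfap in reactive astrocytes.

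Gfap: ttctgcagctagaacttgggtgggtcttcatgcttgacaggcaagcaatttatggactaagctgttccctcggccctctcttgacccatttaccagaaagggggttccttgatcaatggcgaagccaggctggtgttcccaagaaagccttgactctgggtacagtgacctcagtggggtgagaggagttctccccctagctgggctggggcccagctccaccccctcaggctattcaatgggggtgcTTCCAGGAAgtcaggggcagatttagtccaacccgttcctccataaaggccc

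Both strands were searched, and 8.30% of the 32851 promoter windows of the same length held a match to these letters. The match lies at position -2, counted from the gene's start, and says nothing of whether a factor binds there.

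Among genes of water, ion and volume homeostasis, no brightest probe set differed between genotypes by 0.15 or more. Several of these probe sets had the same 3 highest brains as Gfap. Mlc1, a membrane protein of astrocyte end-feet, measured 829, 758 and 702 in heterozygous and 838, 801 and 883 in wild-type brains. It ordered 14 of 15 pairs of brains as Gfap did, and it lay at -0.14 (SE 0.09). Atp1b2, an astrocyte beta subunit of the sodium-potassium pump, measured 2460.1, 1917 and 2323 against 2472, 1838 and 2404. The means of Atp1b2, 2233 ± 283 and 2238 ± 348 (SD, n = 3 each), lay within a log2 difference of 0.0015 (SE 0.13), so its spread was among brains and not between genotypes. Slc4a4, a sodium bicarbonate cotransporter, measured 1406, 1252 and 1259.5 against 1302, 1224 and 1355, at 0.012 (SE 0.084) between genotypes. Atp1b2 and Slc4a4 each ordered 11 of 15 pairs as Gfap did. The dimmer probe sets of Slc4a4 ranged from -0.28 to 0.12, and that of Atp1b2 lay at -0.18 (SE 0.12). No dimmer tested probe set of either gene had the same 3 highest brains as Gfap.

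The other genes of this group did not have those 3 brains highest on their brightest probe sets. Aqp4, the water channel of end-feet, measured 1591, 1759 and 1236 in heterozygous and 1375, 1675 and 1355 in wild-type brains, and ordered 4 of 15 pairs as Gfap did. Its log2 difference was 0.05 (SE 0.13), with -0.03 and 0.12 at its other probe sets. Those, 1425382_a_at and 1447745_at, ordered 10 and 7 of the 15 pairs as Gfap did, so the Aqp4 probe sets disagreed. Ttyh1, a membrane protein of the tweety family, gave the opposite picture. It measured 1054, 1409.9 and 1164 against 1060.1, 1413 and 1019, so that the 3 brains highest for Gfap were the 3 lowest for Ttyh1. Another Ttyh1 probe set, 1422694_at, had 833, 824 and 815 against 959, 734 and 865, with the same 3 highest brains as Gfap.

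**Figure D2:**
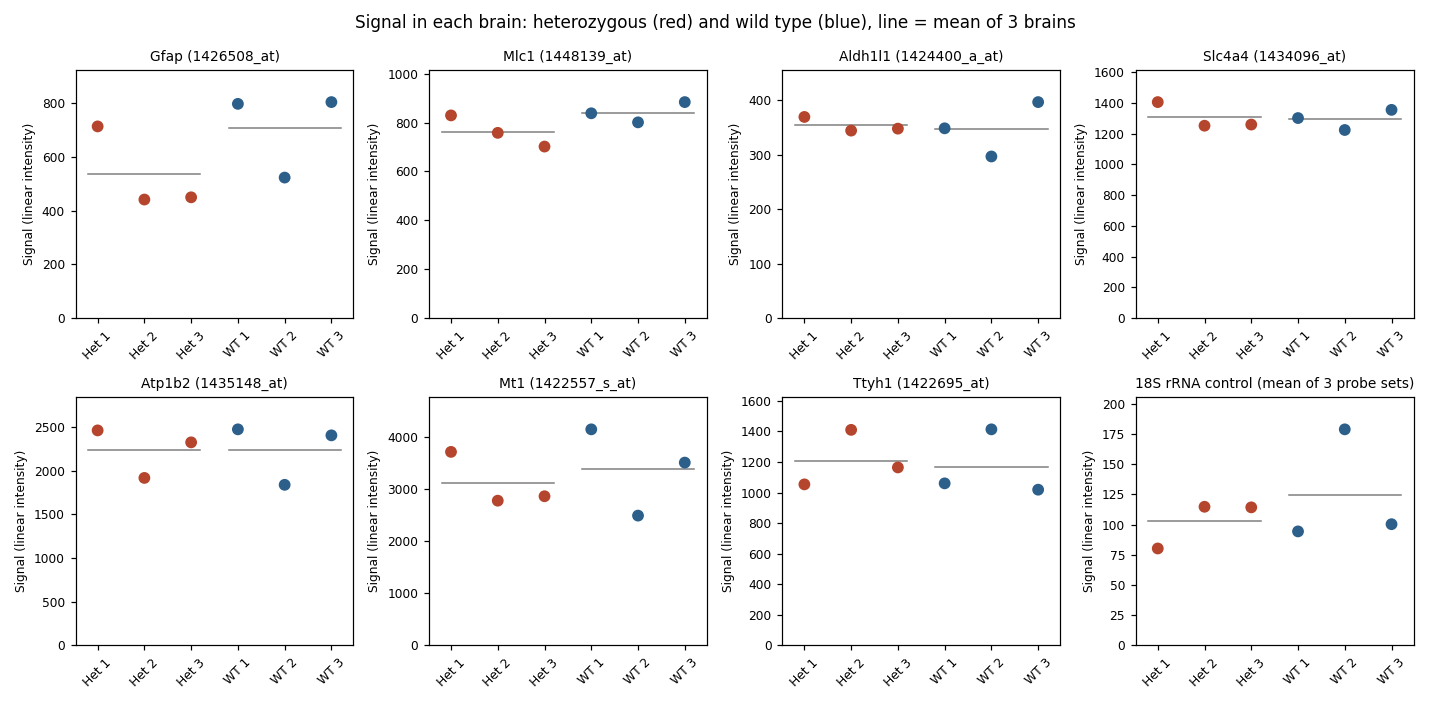
Signal in each brain, on the y axis as linear intensity from 0, for Gfap, 5 genes with the same 3 highest brains, Ttyh1 with the reverse, and the mean of the 3 control probe sets for 18S ribosomal RNA. Points are single brains (red heterozygous, blue wild type) and lines are means of 3; heterozygous 1, wild type 1 and wild type 3 are the highest for Gfap and the lowest for 18S ribosomal RNA, at 80.3, 94.4 and 100.4.

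For amino acid transport and glutamate metabolism, 2 of 5 genes were higher in sign and 3 lower. Slc1a3, the glutamate transporter GLAST, measured 1013, 1159 and 907 in heterozygous and 1473, 1118 and 1144 in wild-type brains. The difference of -0.27 (SE 0.12, limma adjusted p = 0.956) came with overlapping genotypes. Without wild type 1, the highest brain, it was -0.14. The other Slc1a3 probe sets lay at -0.0013, -0.08, 0.08 and -0.14, so that a lower level was not shared by all of them.

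Slc1a2, the main glutamate transporter of the forebrain, measured 5144, 4606 and 4349 against 4724, 4804 and 4954, a log2 difference of -0.04 (SE 0.09). Its dimmer probe sets differed among themselves, with 1451627_a_at at -0.016 (SE 0.13), 1439940_at at -0.28 (SE 0.21) and 1459014_at at -0.57 (SE 0.27). Glul, glutamine synthetase, was at -0.17 (SE 0.11), with its second probe set at 0.07, and without wild type 1 it was at -0.065. On its brightest probe set wild type 1 was highest at 5810.4, as it was for Slc1a3, and heterozygous 3 lowest at 4040.02. Slc25a18, a mitochondrial glutamate carrier, measured 596, 632 and 603 against 588, 574 and 576. The genotypes of Slc25a18 did not overlap, yet the log2 difference was 0.07 (SE 0.08). Slc7a10, a transporter of small neutral amino acids, lay at 0.12 (SE 0.10).

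The metabolic enzymes and the lipid-binding Fabp7 included the highest value among the members. Acsbg1, an acyl-CoA synthetase, measured 767, 737 and 663 in heterozygous and 623, 606 and 580.4 in wild-type brains, with no overlap. The log2 difference was 0.25 (SE 0.09, limma adjusted p = 0.956), a fold of 1.19, and it stayed between 0.21 and 0.31 with any 1 array left out. Aldoc, the brain form of aldolase in glycolysis, measured 7983, 6604 and 6869 against 6424, 6614 and 6059. Its difference of 0.16 (SE 0.09) was -0.07 (SE 0.12) at its dimmer probe set. It was 0.082 without heterozygous 1, the highest brain, and 0.083 with quantile normalization.

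Aldh1l1, a folate enzyme used as a general astrocyte marker, measured 369, 344 and 348 against 348, 297 and 396. It ordered all 6 pairs of brains of the same genotype as Gfap did, with a genotype difference of 0.03 (SE 0.11). Cbs, an enzyme of homocysteine metabolism, had the smallest difference of the 30, at signals of 123.19 ± 3.50 and 123.36 ± 6.85 (SD, n = 3 each). Fabp7, a fatty acid binding protein of radial glia and astrocytes, was at -0.11 (SE 0.08).

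Secreted and calcium-binding proteins differed little. Apoe, the main lipoprotein of the brain, measured 6748, 5974 and 5399.96 in heterozygous and 5823, 5992 and 5994 in wild-type brains, at 0.019 (SE 0.094) on the log2 scale. Clusterin (Clu), also a lipoprotein component, lay at 0.06 (SE 0.09), and its 4 probe sets ranged from -0.0029 to 0.08. Cst3, a secreted protease inhibitor, was at 0.10 (SE 0.10), and Sparcl1, a matrix protein that promotes synapse formation, at 0.0036 (SE 0.088). In Apoe, Clu, Cst3 and Sparcl1 alike, heterozygous 1 was the highest of the 6 brains. The same held for bright probe sets that are no members: the 3' control probe set of Gapdh measured 8249 there and 6094 to 7004 on the other brains, and those of beta-actin, Mbp and Ttr were highest there too. Cst3 was at 0.011 without heterozygous 1. S100b, a calcium-binding protein, lay at -0.11 (SE 0.09) on 1434342_at and at 0.028 (SE 0.10) on 1419383_at, and these probe sets agreed on the order of only 3 of 15 pairs of brains.

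Among receptors, F3 and Fgfr3 were lower without overlap. F3, tissue factor, the cell-surface starter of blood coagulation, measured 265, 291 and 281 in heterozygous and 327, 390.1 and 312 in wild-type brains. The log2 difference was -0.28 (SE 0.11, limma adjusted p = 0.956), a ratio of 0.825, and without wild type 2, the highest brain, it was -0.18. Fgfr3, a fibroblast growth factor receptor, measured 462, 471 and 477 against 522, 498 and 501. Its 3 brains per genotype lay close together, and its difference of -0.10 (SE 0.08) was -0.10 at the other probe set too. Ntsr2, a neurotensin receptor, was at -0.0076 (SE 0.080), and Gpr37l1, an orphan receptor, at 0.04 (SE 0.09).

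In all, the genotypes did not overlap for 4 of 30 genes, 2 higher (Acsbg1 and Slc25a18) and 2 lower (Fgfr3 and F3). That is 13.3% of them, beside 10.1% of all 13024 genes, so the share was near the background (5.19% higher and 4.95% lower over all genes). By probe set it was 5 of 59, or 8.47%, against 10.2% (5.43% higher and 4.81% lower); the fifth was the Vim probe set above.

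Of the transcriptional regulators, Sox9, which directs the formation of glia, lay at -0.15 (SE 0.14) and -0.14 (SE 0.14) at its tested probe sets. Id3, an inhibitor of helix-loop-helix factors, was at -0.05 (SE 0.13). Id3 measured 307, 285 and 209.7 against 259.95, 286 and 277, with heterozygous 3 alone standing low. Without heterozygous 3 its difference was 0.10.

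Of the zinc-binding metallothioneins, Mt1 shared the pattern of Gfap and Mt3 did not. Mt1 measured 3720, 2782 and 2867 in heterozygous and 4153, 2495 and 3514 in wild-type brains. Heterozygous 1, wild type 1 and wild type 3 were highest, as for Gfap. The means, 3123 ± 518 and 3387 ± 836 (SD, n = 3 each), gave a log2 difference of -0.10 (SE 0.17). Mt2, the neighbouring gene, followed with 2305, 1622 and 1872 against 2061, 1631 and 2050.3, a log2 difference of 0.0076 (SE 0.13). Mt3, a form enriched in the nervous system, measured 1625, 2104 and 2147 against 2252, 2049 and 1856, with heterozygous 1 lowest and a difference of -0.07 (SE 0.12).

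Mt1 and Mt2 start regions are printed because both genes had the same 3 highest brains. They lie on the plus strand of chromosome 8 in GRCm38.p6, at chr8:94178839-94179138 for Mt1 and chr8:94172368-94172667 for Mt2. Capitals mark matches on either strand to TGCACNC or TGCGCNC, the core of the metal response element through which zinc is known to induce metallothioneins.

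Mt1: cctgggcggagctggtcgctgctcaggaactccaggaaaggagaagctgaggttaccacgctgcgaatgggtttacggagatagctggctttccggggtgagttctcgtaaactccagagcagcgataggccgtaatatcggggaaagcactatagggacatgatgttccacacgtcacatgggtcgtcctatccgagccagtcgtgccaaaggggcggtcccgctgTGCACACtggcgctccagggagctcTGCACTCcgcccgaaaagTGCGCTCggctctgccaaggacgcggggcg
Mt2: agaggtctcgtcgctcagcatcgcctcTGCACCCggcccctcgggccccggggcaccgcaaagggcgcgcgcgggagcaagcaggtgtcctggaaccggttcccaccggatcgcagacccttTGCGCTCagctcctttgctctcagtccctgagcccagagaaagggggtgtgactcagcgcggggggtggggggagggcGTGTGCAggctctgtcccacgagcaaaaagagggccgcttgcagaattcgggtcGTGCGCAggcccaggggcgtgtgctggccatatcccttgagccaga

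The Mt1 window held 3 matches and the Mt2 window 4. At least 1 match was present in 25.7% of all 32851 windows. Of other genes with the same 3 highest brains as Gfap, the Aldh1l1 window and 1 of 2 Slc4a4 windows held 1 match each and the Mlc1 window none.

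Whether the other members follow the array pattern of Gfap was described by order alone, and no correlation was computed. The reason was that values of the brightest Gfap probe set fell into a high and a low set of 3 brains. On 1426509_s_at these sets lay close together, with wild type 2 at 377 and heterozygous 1 at 398. By brightest probe set, 5 of the other 29 genes had the same 3 highest brains as Gfap (Mlc1, Aldh1l1, Slc4a4, Atp1b2 and Mt1). That was 17.2%, beside 7.59% of all genes, by a rule set after the values were seen. The dimmer tested probe sets of Slc4a4 and Atp1b2 did not have these 3 brains highest, while Aldoc 1424714_at and Ttyh1 1422694_at did. At least 12 of the 15 pairs of brains were ordered as for Gfap by 2 of 29 (Mlc1 and Aldh1l1), or 6.90%, against 8.24% of all genes. Vim 1450641_at, not the brightest of its gene, ordered 12 of the 15 as Gfap did. All 6 pairs within a genotype were so ordered by 3 of 29 (Aldh1l1, Slc4a4 and Gpr37l1), or 10.3%, against 4.18%. The reverse, with the Gfap-high brains lowest, held for 1 of 29 (Ttyh1), or 3.45%, against 6.27%. The same 3 brains had the lowest 18S ribosomal RNA signals, at 80.3, 94.4 and 100.4. The remaining 24 of the 29 markers had other brains among their 3 highest than Gfap did. So did most of all genes, of which 7.59% shared the 3.

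These counts moved with the scaling of the arrays. With each array centred on its median, 7 of 29 ordered at least 12 pairs as Gfap did (24.1%, against 8.08% of all genes), and with quantile normalization 8 did (27.6%, against 8.66%). Mlc1, Atp1b2, Mt1, Slc1a2 and Fgfr3 were among them under both. With median centring 3 genes (10.3%, against 6.00%) and with quantile normalization 6 genes (20.7%, against 7.45%) had the same 3 highest brains, with Mt1 and Slc4a4 among them each time. All 6 pairs within a genotype were ordered as Gfap by 3 genes (against 3.08%) and by 1 gene (against 4.57%). Aldh1l1 and Mlc1 kept the 3 highest brains under quantile normalization but not under median centring, and Atp1b2 the reverse.

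**Figure D3:**
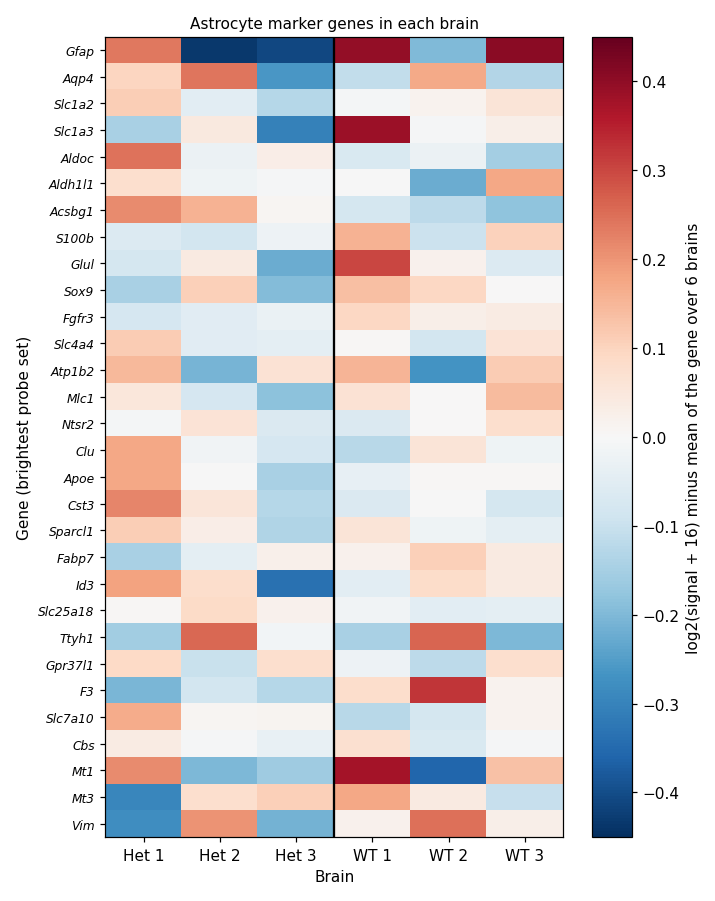
Each of the 30 genes in each brain: colour is log2(signal + 16) minus the gene's own mean over the 6 brains, red above and blue below, with heterozygous brains left of the black line. Gfap and Mt1 show the strongest contrasts between brains, and heterozygous 3 lies below the mean for 22 of the 30 genes. Each other brain does so for 11 to 16.

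Among the brightest probe sets, spread among brains of the same genotype was larger for Gfap than for any other member gene. Its residual SD of 0.36 on the log2 scale exceeded that of 92.8% of all tested probe sets. Mt1 followed at 0.31, above 87.4%, and no other gene's brightest probe set lay above the 80th percentile. Dimmer probe sets could spread more, as Slc1a2 1459014_at did at 0.42. The median residual SD was 0.11 for the 30 genes and 0.15 for all genes. The ratio of the highest to the lowest brain was 1.82 for Gfap and 1.10 for Slc25a18, the extremes of the 30.

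The level of all 30 genes together was taken as the mean of their centred log2 values. It was 0.04, -0.00011 and -0.10 on heterozygous 1 to 3 and 0.05, -0.0087 and 0.018 on wild type 1 to 3. Heterozygous 3 was lowest and wild type 1 highest, and the genotypes overlapped. Heterozygous 3 was the lowest of the 6 brains for 10 of the 30 genes and wild type 2 for 8, while heterozygous 1 was the highest for 11. Shares over all genes are not given for these counts. The group means were -0.020 ± 0.069 and 0.020 ± 0.031 (SD, n = 3 each). Without Gfap the levels were 0.029, 0.015 and -0.086 against 0.040, -0.0022 and 0.0043, and they no longer placed wild type 3 above heterozygous 2. Heterozygous 3 also had the lowest level with quantile normalization (-0.076) and with median centring (-0.12).

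**Figure D4:**
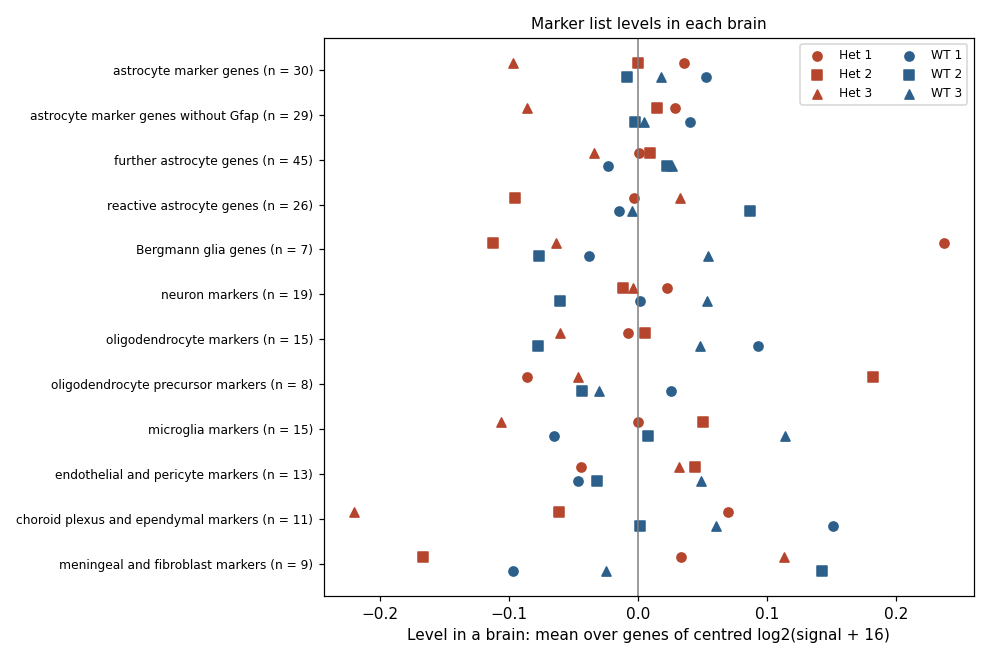
Level of each marker list in each brain, on the x axis as the mean over its genes of log2(signal + 16) centred per gene, with lists and their numbers of tested genes on the y axis. Symbols are single brains; for the 30 astrocyte markers they run from -0.10 on heterozygous 3 to 0.05 on wild type 1.

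Probe sets of the same gene often ordered the brains differently. Of 29 pairings of a gene's brightest probe set with another tested one, in 15 genes, 17 had genotype differences of the same sign. The median number of pairs of brains ordered alike was 8 of 15. It ranged from 3, for Ttyh1 and S100b, to 15, for Gfap and Clu. Ttyh1 1422695_at and Slc1a3 1443749_x_at were highest on heterozygous 2 and wild type 2, the latter at 647, 1070.1 and 654 against 625, 951 and 765.

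**Figure D5:**
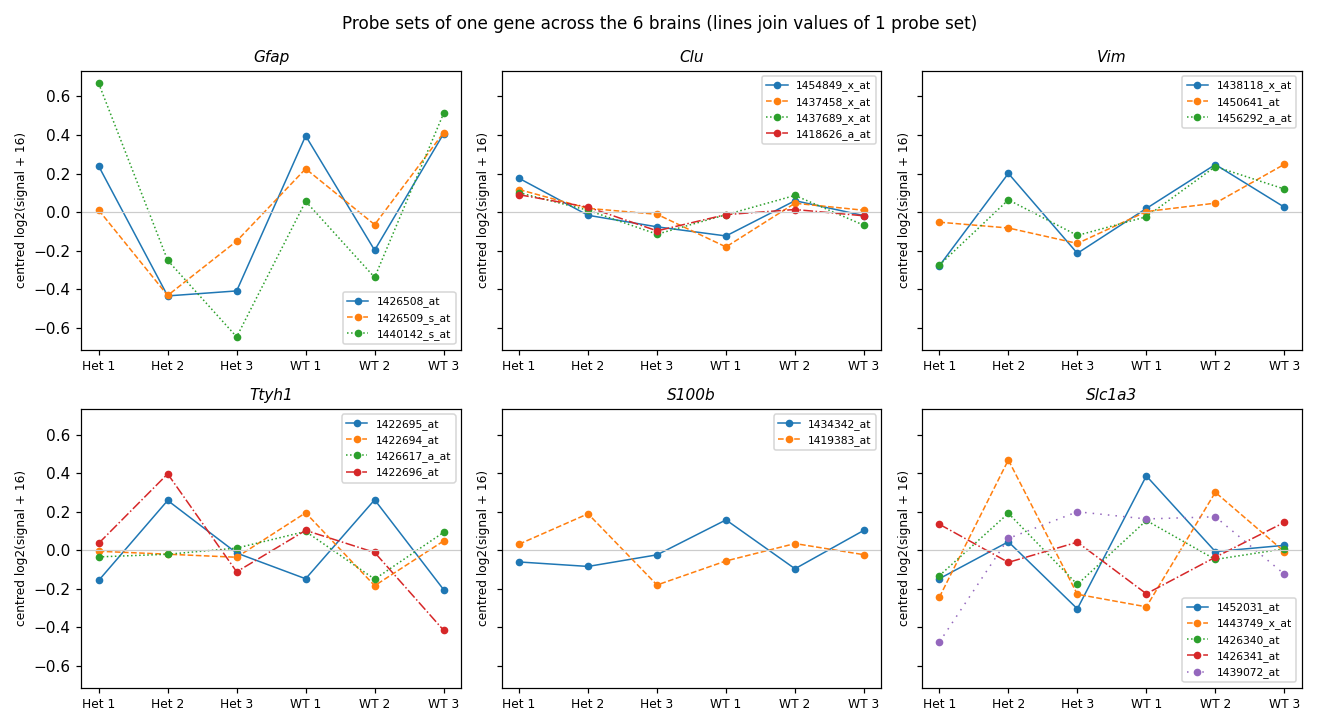
Tested probe sets of 6 genes, as log2(signal + 16) minus the probe set's own mean (y axis) in each brain (x axis), with lines joining the values of 1 probe set. Those of Clu run alike and those of Gfap share their 3 highest brains, while those of Ttyh1, S100b and Slc1a3 cross.

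Further genes of astrocytes, from lists chosen with earlier results of these data known, were examined by counts. Of 45 other astrocyte genes, all tested, none was called, 18 were higher in sign and 27 lower, with a median log2 difference of -0.03. Kcnj10, the potassium channel of astrocytes, was at 0.29 (SE 0.17) and Gabrg1, a GABA-A receptor subunit, at 0.18 (SE 0.11). On the lower side Sox21 lay at -0.34 (SE 0.19) and Ranbp3l at -0.26 (SE 0.20). The same 3 highest brains as Gfap were seen for 4 of the 45 (Gjb6, Mfge8, Ranbp3l and Mt2), or 8.89%. Over all genes it was 7.59%. The reverse was seen for 3 (Gja1, Kcnj16 and Dio2), or 6.67%, beside 6.27% of all genes. Both shares were thus near those of all genes. Of the connexins of astrocyte gap junctions, Gjb6 was in the first set and Gja1 in the second.

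Of 35 genes known to increase in reactive astrocytes, 26 were tested, 6 were dim (Lcn2, Steap4, Tgm1, Ptx3, Cd109 and Slc10a6) and 3 had no probe set of 1 gene. None was called, 10 were higher and 16 lower in sign, and the median was -0.05. Serpina3n, a protease inhibitor that is a common mark of reactive astrocytes, measured 441, 381 and 375 in heterozygous and 473, 617 and 462 in wild-type brains. The genotypes did not overlap, and the difference was -0.35 (SE 0.12, limma adjusted p = 0.956). Gbp2, a guanylate-binding protein, was at -0.41 (SE 0.17), Srgn at 0.22 (SE 0.09) and Hspb1, a small heat shock protein, at 0.22 (SE 0.13). The genotypes did not overlap for Gbp2, which was lower, or for Srgn, which was higher. Over all genes 10.1% were without overlap, and the number in the whole list was not counted. No tested gene of this list had the same 3 highest brains as Gfap, beside 7.59% of all genes. For Serpina3n the highest brain was wild type 2, one of the low brains for Gfap.

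The list for Bergmann glia, the astrocytes of the cerebellar cortex, had 7 of 8 genes tested, 5 higher and 2 lower, with none called. It included Slc1a6, which is known mainly from Purkinje cells, at 0.17 (SE 0.12), and Itih3 at 0.13 (SE 0.10). A2m at -0.08 (SE 0.18) and Dao at -0.04 (SE 0.21) were lowest. Both had the same 3 highest brains as Gfap, 2 of 7 genes or 28.6%, beside 7.59% of all genes. The level of the list was 0.24 on heterozygous 1 and between -0.11 and 0.05 on the other brains.

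Some markers of other cells split the brains as Gfap did, and some in reverse. The same 3 highest brains were found for 3 of 15 oligodendrocyte markers (Mag, Cnp and Mal), or 20.0%, for 3 of 11 choroid plexus and ependymal markers (27.3%), for 2 of 19 neuron markers (10.5%) and for 2 of 15 microglia markers (13.3%). They were found for 1 of 13 endothelial and pericyte markers, for 1 of 9 meningeal markers and for none of 8 markers of oligodendrocyte precursors. Over all genes the share was 7.59%. The reverse was found for 1 marker each of neurons (Tubb3), oligodendrocytes (Olig1), their precursors (Lhfpl3), microglia (Fcrls) and endothelial cells and pericytes (Vtn). Over all genes the reverse held for 6.27%. Mal, a myelin proteolipid, measured 3069, 2517 and 2614 in heterozygous and 3175, 2521 and 2871 in wild-type brains. The level of the oligodendrocyte list was -0.0082, 0.0051 and -0.06 against 0.09, -0.08 and 0.05. Its summed signal ran from 26458 to 29271 in heterozygous and from 26061 to 29030.1 in wild-type brains. No difference between these shares was tested, and the part of such cells and of the 18S signal in the Gfap pattern was not tested.

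Between genotypes none of those lists held a call. The median log2 difference was 0.0055 for neurons, -0.02 for oligodendrocytes, -0.0054 for their precursors, -0.01 for microglia, 0.06 for endothelial cells and pericytes, -0.06 for choroid plexus and ependyma and 0.03 for meninges. The highest and lowest neuron markers were Camk2a at 0.47 (SE 0.12) and Nrgn at -0.37 (SE 0.09), both with limma adjusted p = 0.956.

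Of the 13024 genes tested, 18, Gfap included, put all 15 pairs of brains in the order of Gfap. The 5 whose profiles lay closest to it were Ccl17, Amer1, Kif18b, Adam19 and Ss18l1, at a mean absolute distance of 0.11 to 0.20 on the log2 scale over the 6 brains. Ss18l1, the brightest of them, measured 282, 217 and 228 against 288, 255 and 294. Kif18b, a kinesin gene, measured 23.02, 16.03 and 18.8 against 27.8, 19.9 and 29.3, close to the dim limit, and it is the next protein-coding gene after Gfap on chromosome 11 in the RefSeq order.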

How the data were processed

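Per the labels, biotin-labelled cRNA was made with oligo(dT) priming, which favours the 3' ends of transcripts. The deposited table holds 1 linear intensity per probe set and array, and in it the mean of the central 96% of values is 150.0 on each array. The sources used here do not name the summarising software. With 3 arrays per genotype, precision is limited by their number.

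Of 45037 probe sets, the platform annotation gave 1 gene for 34945, several for 932 and none for 9160. Entrez identifiers of 34741 matched RefSeq genes (GRCm38.p6), which gave current symbols. Values entered as log2(intensity + 16). Probe sets with a mean at or below the 40th percentile (18015) were removed, and 27022 were fitted with limma 3.58.1 in R 4.3.3 (lmFit, eBayes with an intensity trend, two-sided, Benjamini-Hochberg over all of them). Permutation used scipy 1.17.1. Each gene stood for its brightest probe set that passed the filter. The order of brains was compared with that of Gfap over 15 pairs of arrays, 6 of them within a genotype. The fit was tested on simulated data with known changes. Alternatives were other scalings, pseudocounts of 1 and 64, other dim filters, no trend, a replicate block, an 18S covariate and leaving out each array. The members, the lists and the rule for named genes (all members, the 2 highest and 2 lowest of each other list by moderated t, and the 5 genes outside the lists closest to Gfap) were chosen with earlier results of these data known.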

Additional observations from a re-analysis of the deposited data

How the results depend on the processing

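No member probe set was called under any of the 15 alternatives to the fit, and the median difference of the 30 genes stayed between -0.06 and 0.02. Over all probe sets the 4 calls became 1 without the dim filter, 1 without the intensity trend and 11 with the 18S covariate, and ranged from 1 (without heterozygous 2) to 14 (without heterozygous 1) with 1 array left out. Genes ordering at least 12 of 15 pairs of brains as Gfap, 2 at first, were 8 with quantile normalization, 7 with median centring and 4 with the mean over a gene's probe sets. Those ordering all 6 pairs within a genotype, 3 at first, were 1 with quantile normalization. Differences close to 0 changed sign. With quantile normalization Atp1b2 lay at -0.018, Apoe at -0.062, Sparcl1 at -0.062 and Cbs at 0.0048. With median centring Aldh1l1 lay at -0.00073, Slc4a4 at -0.023, Atp1b2 at -0.034, Apoe at -0.016 and Sparcl1 at -0.031. With the 18S covariate, added after seeing the data, Aldh1l1 lay at -0.033, Slc4a4 at -0.027, Atp1b2 at -0.10, Apoe at -0.0040 and Sparcl1 at -0.021. With 1 array left out the sign varied for Slc4a4 (-0.041 to 0.046), Atp1b2 (-0.13 to 0.11), Clu (-0.019 to 0.11), Apoe (-0.063 to 0.097), Sparcl1 (-0.051 to 0.072), Mt3 (-0.14 to 0.055), Aqp4 (-0.059 to 0.19), Ttyh1 (-0.055 to 0.21), Cbs (-0.035 to 0.036), Slc1a2 (-0.11 to 0.012), Ntsr2 (-0.042 to 0.028), Id3 (-0.15 to 0.10), Mt1 (-0.30 to 0.064), Aldh1l1 (-0.069 to 0.13) and Gpr37l1 (-0.0060 to 0.10). Without a change of sign, Cst3 ran from 0.011 to 0.19, Mlc1 from -0.20 to -0.082, Sox9 from -0.25 to -0.097, S100b from -0.19 to -0.060, Fabp7 from -0.15 to -0.065, Slc7a10 from 0.073 to 0.16, Slc25a18 from 0.048 to 0.089, Glul from -0.25 to -0.065, Aldoc from 0.082 to 0.22, Vim from -0.34 to -0.10 and Gfap from -0.62 to -0.29. Cst3 was at 0.0061 with quantile normalization. The causes were not tested.

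The values do not settle whether the replicate numbers pair the brains. Deviations of same-numbered brains from their genotype means correlated at 0.08, 0.20 and -0.02. Those of other pairs ran from -0.16 (heterozygous 1 with wild type 2) to 0.09 (heterozygous 1 with wild type 3). With the replicate number as a block 5 probe sets were called in place of 4, none of them a member, and Gfap stayed at -0.40 (limma adjusted p = 0.612). Signal over background limits the 6 dim member probe sets, which were not tested.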
